A study of Mus musculus with 8 samples.

Results

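Actin, the protein of thin filaments and of the cytoskeleton, is made in the mouse from 6 closely related genes, and these 6 genes were described here from RNA sequencing of whole mouse embryo hearts at E18.5. They were found by gene symbol among the 49315 genes of the count files: Actc1, Acta1, Acta2, Actg2, Actb and Actg1. The 4 mutant hearts (Mut) carried M195I on both alleles of CHD4 (CHD4 M195I/M195I), the other 4 hearts were wild type (WT), and the labels name no treatment in either group. CHD4 is a chromatin-remodelling ATPase of the NuRD complex. The question put to the data was how the level of each actin transcript, and its share of all actin, compared between mutant and WT hearts. The labels name no litter, batch or strain background and do not say that each library came from a separate litter, so the p-values measure the spread between these samples.

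Of the actins, 4 are muscle isoforms. Actc1 encodes cardiac alpha-actin, the main actin of the cardiac thin filament, and Acta1 encodes skeletal alpha-actin, which fetal and stressed cardiomyocytes also make. Acta2 encodes the alpha-actin of vascular smooth muscle and Actg2 the gamma-actin of visceral smooth muscle. The other 2, Actb and Actg1, encode the cytoplasmic beta- and gamma-actins found in nearly every cell. Serum response factor (SRF), joined by myocardin-family coactivators, some of which free actin monomer can hold back, drives many actin and actin-binding genes through the CArG box, its DNA motif.

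The promoter stretches around this motif are shown because they are the sequence through which the family is known to be linked to SRF. The RefSeq table for GRCm38.p6 held windows from 250 bases before to 50 bases after the start for 4 of the 6 genes (Actc1, Acta1, Acta2 and Actg1), and none for Actg2 and Actb. The CArG box, searched as CC, then 6 bases that are each A or T, then GG, is in capitals, and each stretch of 60 bases is on the minus strand. Actc1 is shown at chr2:114052888-114052947, with the motif beginning at -47 from the start, Acta1 at chr8:123894814-123894873, with the motif at -73, and Actg1 at chr11:120348551-120348610, with the motif at -90.
Actc1: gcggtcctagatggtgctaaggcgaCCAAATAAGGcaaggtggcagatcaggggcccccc
Acta1: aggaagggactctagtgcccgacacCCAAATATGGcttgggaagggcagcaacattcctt
Actg1: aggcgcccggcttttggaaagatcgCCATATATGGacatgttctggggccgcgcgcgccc
The Acta2 window held no match to these letters. Among all 32851 RefSeq promoter windows of this length, 1.63% held a CArG box on either strand. CATTCC, the core of the element bound by TEAD factors, began at -46 in Acta1, in the lower-case part of the stretch above, and at -146 on the opposite strand in Acta2, and was found in 14.7% of all windows. TATAAA began at -7 in Acta1 and at +34 in Actc1, and was found in 13.6% of all windows. The motifs were searched on both strands and none of these matches overlapped another. All positions are counted from the RefSeq start. The Actc1 stretch lies inside the gene span given below. The RefSeq starts of all 4 genes differ from the outer ends of the gene spans given below. The positions are therefore not distances from those ends.

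Mut libraries held 18673488 to 21341235 counts each and WT libraries 18375951 to 20815388. The hearts carried their tissue's markers: the summed level of 12 cardiomyocyte genes in counts-per-million (CPM) ranged from 48067 to 53063 CPM in Mut hearts and from 52901 to 57929 CPM in WT hearts. Some libraries stood apart in RNA of a neighbouring tissue. The airway secretoglobin Scgb3a2 was at least 10 CPM in Mut replicates 3 and 4 (284 and 498 CPM) and in WT replicates 1, 3 and 4 (385, 436 and 176 CPM), and stood at 6.48, 0.328 and 0.817 CPM in Mut replicate 1, Mut replicate 2 and WT replicate 2. The Y-linked transcript Ddx3y was lowest in WT replicate 4, at 35.5 CPM, against 70.3 to 80.4 CPM in the other 7 libraries. Chd4, the mutated gene, averaged 482 ± 8.48 CPM in Mut hearts and 452 ± 6.37 CPM in WT hearts (SD, n = 4 each), a log2 fold change of 0.09 ± 0.03 (SE) that missed the threshold (adjusted p = 0.0945). A missense change need not alter the transcript's level, so that value does not check the labels.

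Most actin transcripts were lower in the Mut hearts. All 6 genes passed the filter on low counts, 4 of them (Actc1, Acta2, Actb and Actg1) were called lower, none was called higher, and the other 2 (Acta1 and Actg2) were not called. Calls were made at a Benjamini-Hochberg adjusted p under 0.05 in the quasi-likelihood test of edgeR over 16372 genes, of which 7.49% were called lower, 5.75% higher and 13.2% in either direction. The 6 log2 fold changes were all below 0 with a median of -0.30, against a median of -0.00 over all genes tested. In 5 of the 6 genes, all except Actg2, every Mut library was below every WT library after TMM scaling. This was the case for 9.77% of the genes tested, and the genotypes were apart in either direction for 18.6%. For Acta1 the separation did not hold with library totals in place of TMM scaling. Together the 6 actins took 1.06% ± 0.05 of all counts in Mut hearts and 1.35% ± 0.0678 in WT hearts (SD, n = 4 each). Levels below are RPKM, CPM divided by the length of the gene's exons in kilobases and scaled between libraries by TMM, so that genes can be compared with each other. In whole hearts, fewer cells of a type and less RNA per cell cannot be told apart.

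**Figure D1:**
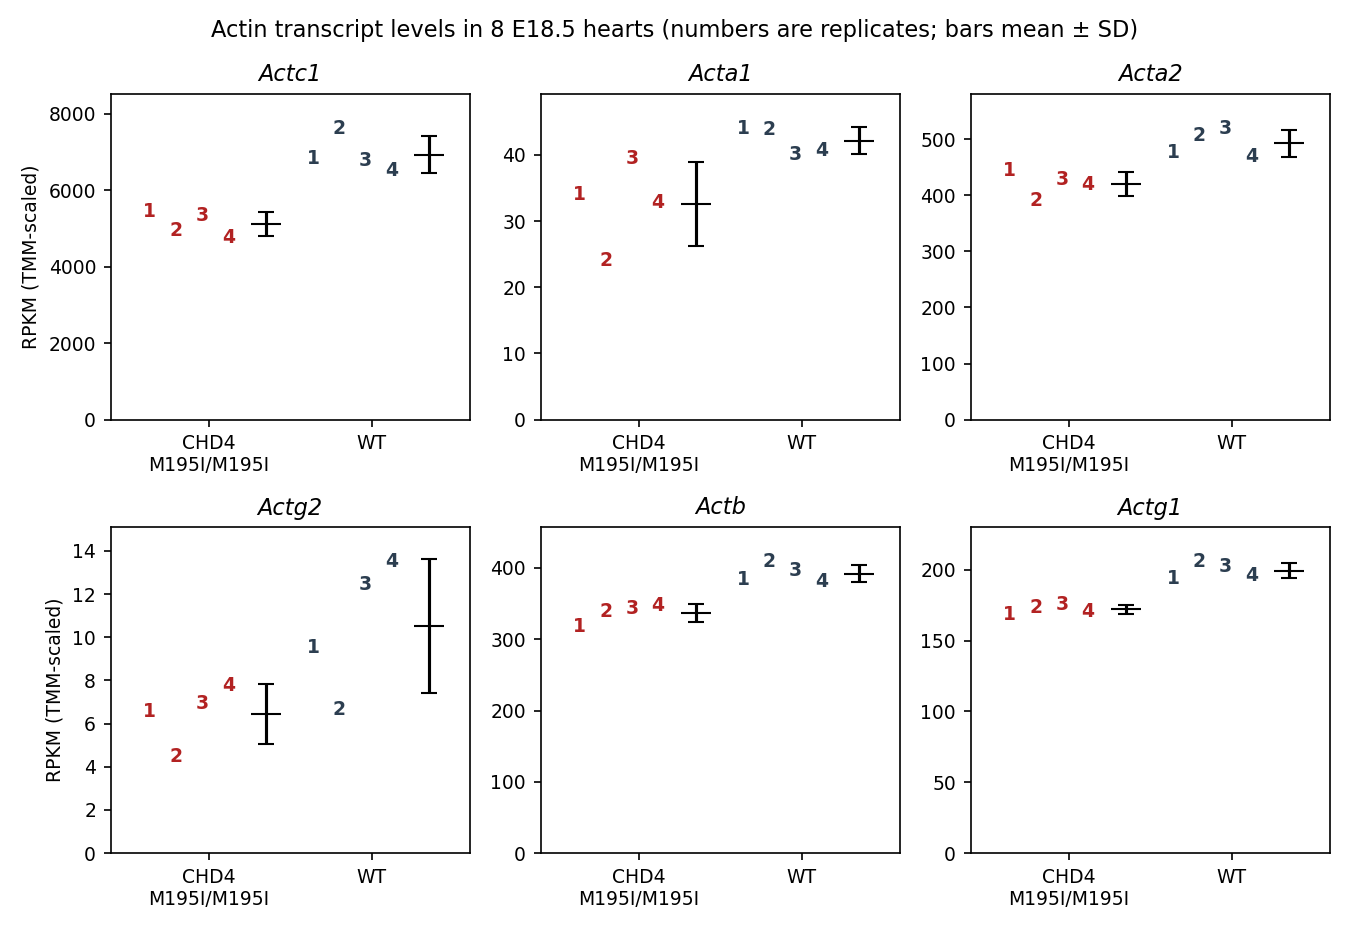
Levels of the 6 actin transcripts as TMM-scaled CPM per kilobase of exon (RPKM, vertical axes from 0, a different scale in each panel), with each library drawn as its replicate number, Mut left of WT, and bars for the mean ± SD of 4 libraries. Every Mut library lies below every WT library in 5 panels, and in the Actg2 panel WT replicate 2, at 6.64 RPKM, lies among the Mut libraries.

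Actc1 (ENSMUSG00000068614), the cardiac alpha-actin gene, lies at chr2:114047282-114053548 on the minus strand of GRCm38, with 7 exons. Its level was 5438, 4951, 5339 and 4762 RPKM in Mut replicates 1 to 4, against 6818, 7615, 6765 and 6506 RPKM in WT replicates 1 to 4. The groups did not overlap, with WT replicate 2 the highest library and Mut replicate 4 the lowest. The means were 5122 ± 319 RPKM in Mut hearts and 6926 ± 479 RPKM in WT hearts (SD, n = 4 each). The log2 fold change was -0.44 ± 0.06 (SE; edgeR adjusted p = 0.000176), so that the mean Mut level was 74.0% of the WT level. Actc1 ranked 4 among the 16372 tested genes by mean RPKM in Mut hearts and 3 in WT hearts. It accounted for 91.4% of the summed difference of the 6 actins in RPKM. Where 7.49% of all genes tested were called lower, 3 of the 12 cardiomyocyte markers were called lower and none higher. Sums of these 12 markers are given above and overlapped between the genotypes. Their part in the difference was not tested.

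Acta1 (ENSMUSG00000031972, chr8:123891769-123894751, minus strand, 7 exons), the skeletal alpha-actin gene, stood far below Actc1. It had 34.0, 24.1, 39.4 and 32.9 RPKM in Mut replicates 1 to 4, against 44.0, 43.8, 40.1 and 40.7 RPKM in WT replicates 1 to 4. No Mut library reached the lowest WT library, but Mut replicate 3 came close to it and Mut replicate 2 lay well below the rest. As CPM of library totals, Mut replicate 3 (61.40 CPM) lay above WT replicates 3 and 4 (61.08 and 61.22 CPM), so there the groups overlapped. The means were 32.6 ± 6.34 RPKM in Mut hearts and 42.1 ± 2.05 RPKM in WT hearts (SD, n = 4 each), with a log2 fold change of -0.37 ± 0.14 (SE) that was not called (edgeR adjusted p = 0.145). Acta1 passed the threshold in the fits that left out Mut replicate 2 (log2 fold change -0.25, adjusted p = 0.0234) or Mut replicate 3 (-0.47, adjusted p = 0.0465), and in DESeq2 (-0.37, adjusted p = 0.00855).

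Acta1 is also made by skeletal muscle. Of 15 skeletal muscle markers, 9 could be tested and 5 of these were called lower, beside 7.49% of all genes tested. The list summed to 2132 to 2340 CPM in Mut hearts and 2500 to 2691 CPM in WT hearts. Creatine kinase Ckm, which the heart also makes, held 1969 to 2139 CPM of it in Mut hearts and 2237 to 2447 CPM in WT hearts. The other 14 genes summed to 163 to 201 CPM in Mut hearts and 237 to 263 CPM in WT hearts, again without overlap. Among these, Myl1 had 79.4 to 106 CPM in Mut hearts and 108 to 119 CPM in WT hearts. Casq1 had 37.7 to 48.3 CPM in Mut hearts and 72.3 to 91.3 CPM in WT hearts. Both were called lower, as were Ckm, Myh8 and Mybpc1, while Myh3, Mybpc2, Tnnt3 and Tnni2 were not called. Of the factors that define the skeletal lineage, Myod1 had no count in any library, and Myog was at most 0.321 CPM in Mut hearts and 0.218 CPM in WT hearts.

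The balance between the 2 sarcomeric alpha-actins is a common readout of fetal and stressed myocardium. Counts per kilobase of Actc1 were 160, 206, 136 and 145 times those of Acta1 in Mut replicates 1 to 4, and 155, 174, 169 and 160 times in WT replicates 1 to 4. The groups overlapped throughout, and the Mut libraries spread more widely than the WT libraries. The mean log2 ratio was 7.32 ± 0.26 in Mut hearts and 7.36 ± 0.07 in WT hearts (SD, n = 4 each). The difference of -0.04 did not exceed the spread between libraries (exact two-sided permutation test over 70 regroupings, p = 0.857, where the smallest possible p is 0.0286). Leaving out each library in turn moved it between -0.16 and 0.04.

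Acta2 (ENSMUSG00000035783, chr19:34241090-34255336, minus strand, 9 exons), the vascular smooth muscle alpha-actin gene, was lower in Mut hearts. It had 443, 391, 427 and 419 RPKM in Mut replicates 1 to 4, against 476, 506, 519 and 469 RPKM in WT replicates 1 to 4. The groups did not overlap, and Mut replicate 1 came nearest to the WT libraries. The means were 419.9 ± 21.9 RPKM in Mut hearts and 492 ± 23.8 RPKM in WT hearts (SD, n = 4 each), with a log2 fold change of -0.23 ± 0.05 (SE; edgeR adjusted p = 0.00452).

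Markers of smooth muscle as a group did not separate the genotypes once desmin was set aside. The list of 8 smooth muscle genes summed to 1149 to 1286 CPM in Mut hearts and 1389 to 1497 CPM in WT hearts. Of the 8, 2 (Smtn and Des) were called lower, beside 7.49% of all genes tested. Desmin, the product of Des, is also made by cardiomyocytes, and Des alone held 755 to 787 CPM in Mut hearts and 903 to 1015 CPM in WT hearts. The other 7 genes summed to 394 to 508 CPM in Mut hearts and 421 to 554 CPM in WT hearts, with overlap. Myh11, the smooth muscle myosin that defines the lineage, had 54.1, 29.4, 64.5 and 69.2 CPM of library totals in Mut replicates 1 to 4 and 56.4, 34.1, 68.9 and 95.5 CPM in WT replicates 1 to 4. Its ranges overlapped, and it was not called (log2 fold change -0.28, edgeR adjusted p = 0.731). The 8 pericyte markers summed to 790 to 834 CPM in Mut hearts and 788 to 929 CPM in WT hearts, with overlap. None of the 8 was called higher and 2 were called lower, beside 7.49% of all genes tested. These were Cspg4 (log2 fold change -0.33, edgeR adjusted p = 0.000134) and Higd1b (-0.51, adjusted p = 0.0453). The part of these cells in the Acta2 difference was not tested.

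Actg2 (ENSMUSG00000059430, chr6:83512905-83536265, minus strand, 9 exons), the visceral smooth muscle gamma-actin gene, was the rarest of the 6. It lies on the same chromosome as Chd4, 41559716 bases away. Its raw counts were 193, 150, 209 and 252 in Mut replicates 1 to 4, against 272, 207, 392 and 378 in WT replicates 1 to 4. Scaled, these were 6.55, 4.48, 6.92 and 7.76 RPKM in Mut replicates 1 to 4 and 9.50, 6.64, 12.5 and 13.5 RPKM in WT replicates 1 to 4. WT replicate 2 lay inside the Mut range, and the other 3 WT libraries lay above all Mut libraries. The means were 6.43 ± 1.39 RPKM in Mut hearts and 10.5 ± 3.09 RPKM in WT hearts (SD, n = 4 each), and the log2 fold change of -0.71 ± 0.27 (SE) was not called (edgeR adjusted p = 0.150).

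The lowest Actg2 library of each genotype, Mut replicate 2 and WT replicate 2, was also its genotype's library with the least Scgb3a2. A split of the libraries by airway RNA was not planned in advance. Libraries with at least 10 CPM of Scgb3a2 were counted as with airway RNA, and the other 3 as without. Mut replicate 1, counted as without, still held 6.48 CPM of Scgb3a2 and 2.035 CPM of the lung transcript Sftpc. Among the 5 libraries with airway RNA (2 Mut and 3 WT), the Actg2 log2 fold change was -0.69 and passed the threshold (edgeR adjusted p = 0.00805). Among the 3 without it (2 Mut and 1 WT) it was -0.27, given as an effect size only because the WT group was a lone library. Actg2 also passed with a score of 12 airway and lung genes as a covariate (-0.67, adjusted p = 0.0196), without WT replicate 2 (-0.88, adjusted p = 0.0365) and in DESeq2 (-0.71, adjusted p = 0.00616). Of 4 markers of airway and visceral smooth muscle, none of the 3 tested was called, and their sum ranged from 31.3 to 51.2 CPM in Mut hearts and from 23.3 to 38.7 CPM in WT hearts. Lgr6 made up most of that sum, at 29.8 to 35.6 CPM in Mut hearts and 22.7 to 35.3 CPM in WT hearts. Hhip, another of the 4, was at 0.696 and 0.469 CPM in Mut replicates 1 and 2 and 0.048 CPM in WT replicate 2, against 4.08 and 11.2 CPM in Mut replicates 3 and 4 and 5.38, 3.83 and 2.503 CPM in WT replicates 1, 3 and 4. It was thus higher in all 5 libraries with airway RNA than in the 3 without. Lgr6, Foxf1 and Foxf2 did not split in this way. Lgr6 was highest in Mut replicate 1 (35.6 CPM), a library counted as without airway RNA. Foxf1 was higher in Mut replicate 2 (1.03 CPM) than in WT replicates 1 and 4 (0.861 and 0.871 CPM). Foxf2 was higher in Mut replicate 1 (0.107 CPM) than in WT replicate 4 (0.0544 CPM). The part of airway tissue in the Actg2 values was not tested.

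**Figure D2:**
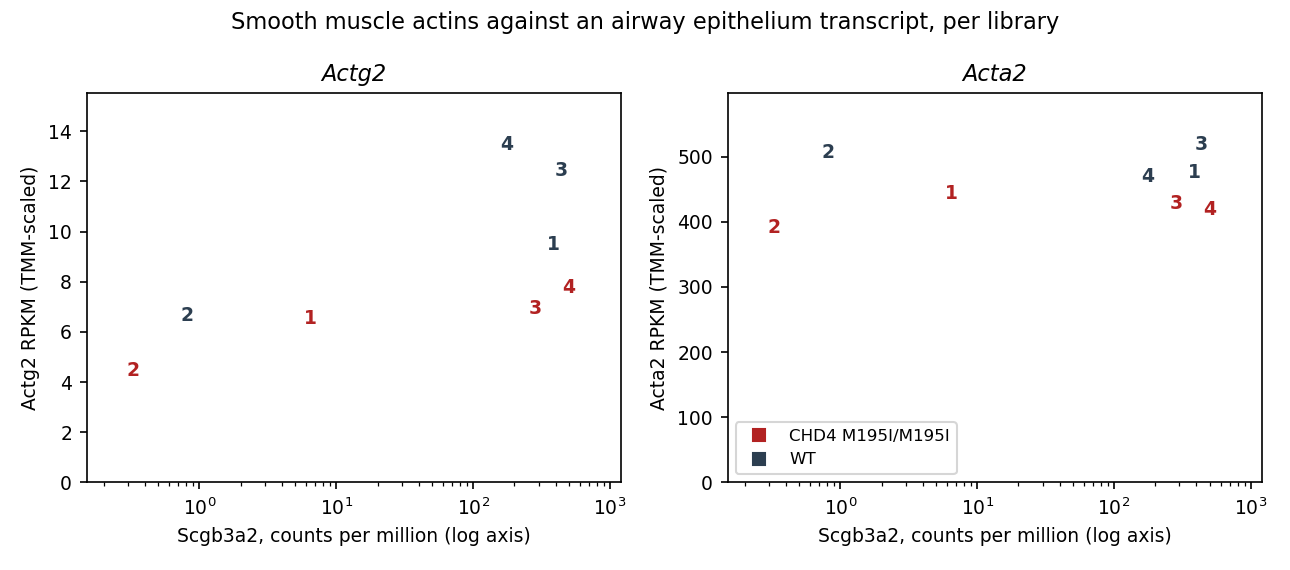
RPKM of Actg2 (left) and Acta2 (right), with vertical axes from 0, against CPM of the airway transcript Scgb3a2 (log axis), each library drawn as its replicate number, in red for Mut and dark blue for WT. The libraries with the least Scgb3a2, Mut replicate 2 at 0.328 CPM and WT replicate 2 at 0.817 CPM, are also the lowest of their genotype in Actg2, at 4.48 and 6.64 RPKM, whereas for Acta2 all Mut libraries lie below all WT libraries at either end of the axis.

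The other 5 actins kept their direction in both subsets, with different sizes. With airway RNA the log2 fold changes were -0.41 for Actc1, -0.21 for Acta1, -0.21 for Acta2, -0.17 for Actb and -0.19 for Actg1. Without it they were -0.55 for Actc1, -0.59 for Acta1, -0.27 for Acta2, -0.31 for Actb and -0.26 for Actg1. With airway RNA, all but Acta1 were called. For the subset without it only the effect sizes are given, since its WT group was a lone library.

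Actb (ENSMUSG00000029580, chr5:142903115-142906754, minus strand, 6 exons), the cytoplasmic beta-actin gene often used to normalize other transcripts, was itself lower in Mut hearts. It had 318, 339, 343 and 347 RPKM in Mut replicates 1 to 4, against 383, 408, 396 and 381 RPKM in WT replicates 1 to 4. The groups were clearly apart. The means were 337 ± 12.8 RPKM in Mut hearts and 392 ± 12.6 RPKM in WT hearts (SD, n = 4 each), with a log2 fold change of -0.22 ± 0.04 (SE; edgeR adjusted p = 0.00252).

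Actg1 (ENSMUSG00000062825, chr11:120345690-120348542, minus strand, 6 exons), the cytoplasmic gamma-actin gene, was lower by nearly the same amount. It had 169, 174, 175 and 171 RPKM in Mut replicates 1 to 4, against 194, 206, 202 and 196 RPKM in WT replicates 1 to 4. These were the tightest groups of the 6 genes, and they did not overlap. The means were 172 ± 3.01 RPKM in Mut hearts and 199 ± 5.31 RPKM in WT hearts (SD, n = 4 each), with a log2 fold change of -0.21 ± 0.04 (SE; edgeR adjusted p = 0.00127). Counts per kilobase of Actb were 1.96 ± 0.0595 times those of Actg1 in Mut hearts and 1.97 ± 0.0189 times in WT hearts, and the groups overlapped.

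The actin genes are near copies of each other, so reads could in principle be assigned to the wrong isoform. Coding sequences of the longest annotated transcripts were 82.0% (Acta2 and Actg1) to 88.6% (Actb and Actg1) identical, and 86.3% for Actc1 and Acta1. No stretch of 100 bases of Actc1, Acta1, Acta2 or Actg2 occurred letter for letter in the transcripts of another gene. Of the 100-base stretches of Actb, 1.10% were shared, with Lrrc58 and the annotated gene Gm15725. In Actg1 the share was 51.1%, with 6 other genes, above all Gm12715 with 823 stretches. With stretches of 50 bases more was shared: 14.2% in Actb, 56.7% in Actg1, 2.22% in Acta1 and 0.352% in Acta2. None was shared in Actc1 and Actg2 at that length.

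The sources used here name neither the read length nor the treatment of multiply mapped reads, so the absolute level of Actg1, and to a lesser degree of Actb, is uncertain. Gm12715 had 48 to 69 counts in Mut libraries and 48 to 66 counts in WT libraries, against 8485 to 9914 Actg1 counts in Mut libraries and 9388 to 10939 in WT libraries. Exons of Gm23419 (83 bases) and Mir6935 (64 bases) overlap those of Actg1 on the same strand. They held 17 and 0 counts over all 8 libraries. No annotated exon overlapped those of the other 5 actins.

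Within a genotype the order of the mean levels was Actc1, Acta2, Actb, Actg1, Acta1 and Actg2 in Mut hearts and the same in WT hearts. No neighbours in that order overlapped between their 4 libraries of one genotype. The place of Acta2 above Actb depended on the length used to scale the counts. Scaled by the longest annotated transcript instead of all exons together, Actb had 469.9 ± 17.9 RPKM in Mut hearts and 547 ± 17.6 RPKM in WT hearts, above Acta2 with 368 ± 19.2 RPKM in Mut hearts and 431 ± 20.9 RPKM in WT hearts (SD, n = 4 each).

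Isoform shares, each gene's part of the summed counts per kilobase of the 6 actins, shifted slightly away from Actc1. The Actc1 share was 84.9%, 84.2%, 84.3% and 83.0% in Mut replicates 1 to 4, against 86.0%, 86.7%, 85.3% and 85.5% in WT replicates 1 to 4. The groups did not overlap, although Mut replicate 1 and WT replicate 3 lay close together. The means were 84.1% ± 0.793 in Mut hearts and 85.9% ± 0.624 in WT hearts (SD, n = 4 each). Since shares add up to a fixed total, they move against each other and are given without a test.

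Among the other isoforms, Acta2, Actg1 and Actb had higher mean shares in Mut hearts. The Acta2 share was 6.92%, 6.64%, 6.75% and 7.29% in Mut replicates 1 to 4, against 6.003%, 5.76%, 6.54% and 6.17% in WT replicates 1 to 4, without overlap. For Actg1 it was 2.63%, 2.95%, 2.77% and 2.97% in Mut replicates 1 to 4, against 2.45%, 2.34%, 2.55% and 2.58% in WT replicates 1 to 4, again without overlap. Actb held 5.55% ± 0.465 in Mut hearts and 4.87% ± 0.168 in WT hearts (SD, n = 4 each), where Mut replicate 1, at 4.97%, lay below 2 WT libraries. These shares were higher although the levels of the same genes were lower, since the level of Actc1 was lower by more.

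The minor muscle isoforms did not separate the genotypes by share. Acta1 held 0.534% ± 0.0909 in Mut hearts and 0.524% ± 0.0262 in WT hearts, and Actg2 held 0.106% ± 0.0243 in Mut hearts and 0.132% ± 0.0447 in WT hearts (SD, n = 4 each). Together the 4 muscle actins held 91.6% ± 0.624 in Mut hearts and 92.7% ± 0.276 in WT hearts, with the highest Mut library (92.40%) almost level with the lowest WT library (92.41%). Within the cytoplasmic pair, Actb held 66.2% ± 0.679 in Mut hearts and 66.3% ± 0.215 in WT hearts, with overlap (SD, n = 4 each).

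**Figure D3:**
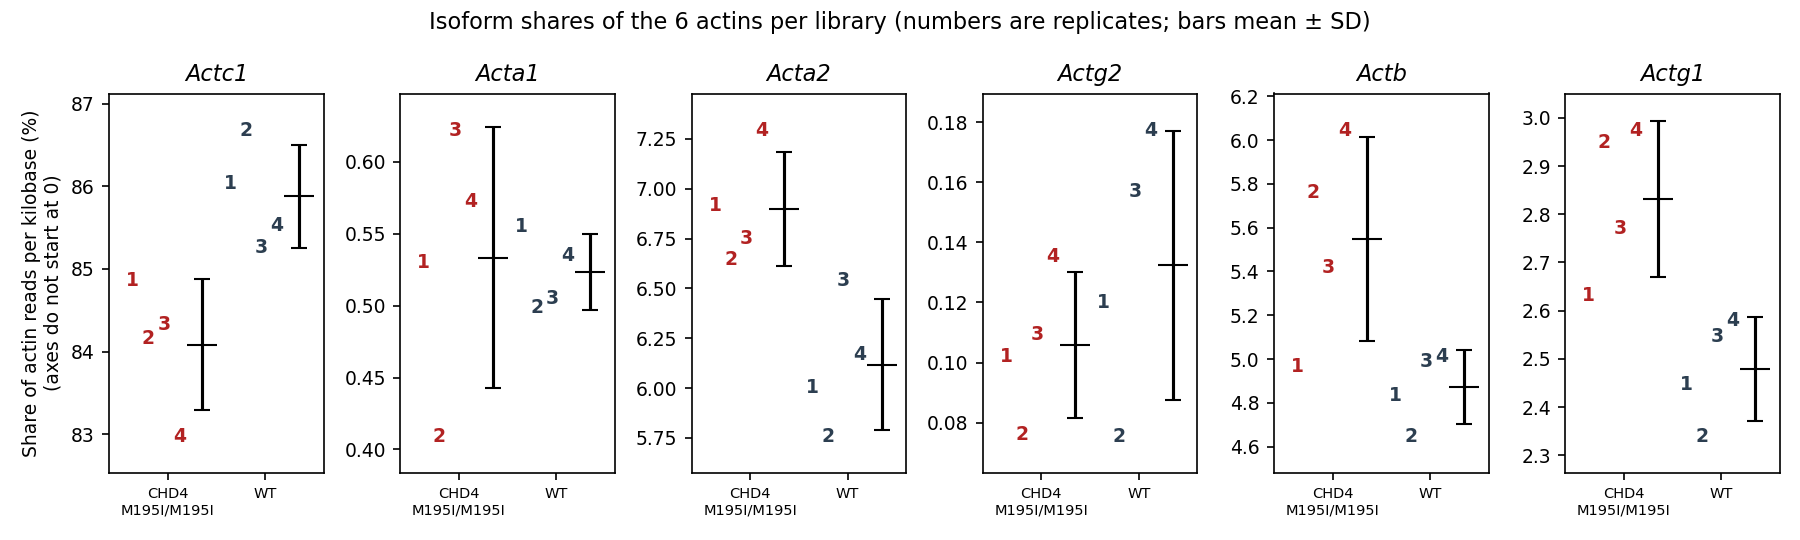
Share of each actin in the summed counts per kilobase of the 6 genes, in percent (vertical axes do not start at 0), with each library drawn as its replicate number, Mut left of WT, and bars for the mean ± SD of 4 libraries. The Actc1 share is lower in every Mut library, at 83.0% to 84.9% against 85.3% to 86.7% in WT, while the Acta2 and Actg1 shares are higher in every Mut library and the other 3 panels overlap.

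As plain shares of counts, with no division by length, Actc1 held 79.2% ± 1.04 in Mut hearts and 81.5% ± 0.750 in WT hearts. The 95% Wilson intervals of these shares in single libraries were at most 0.358 percentage points wide and cover counting error only. Counts per kilobase of Actc1 were 12.2 ± 0.575 times those of Acta2 in Mut hearts and 14.1 ± 0.844 times in WT hearts, without overlap. Against Actb they were 15.2 ± 1.44 times in Mut hearts and 17.6 ± 0.747 times in WT hearts, with overlap (SD, n = 4 each).

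Genes that act with actin were taken from 8 lists, chosen with earlier results of these data known, and their changes were uneven. Over all genes tested, 7.49% were called lower and 5.75% higher. The regulators showed little: of 7 genes for SRF and its coactivators, none was called lower and 1, the coactivator Mrtfb, was called higher (log2 fold change 0.17 ± 0.05, edgeR adjusted p = 0.0423), with a list median of 0.06. Their targets were often lower. Of 24 SRF target genes outside the actins, 13 were called lower and none higher, with a median of -0.25. Among those with the smallest adjusted p were Ccn1, a secreted matrix-associated protein (-0.90 ± 0.08, adjusted p = 4.31e-05), the calponin Cnn2 (-0.37 ± 0.04, adjusted p = 7.89e-05) and the transgelin Tagln2 (-0.30 ± 0.04, adjusted p = 0.000127). Ccn1 had 36.9, 43.6, 44.8 and 44.6 CPM in Mut replicates 1 to 4, against 73.3, 78.1, 90.1 and 75.5 CPM in WT replicates 1 to 4, with a wide gap between the groups.

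The sarcomere's actin partners were the other list with many changes. Of 25 tested troponins, tropomyosins, sarcomeric myosins and thin filament scaffolds (28 in the files), 12 were called lower and none higher. Their median was -0.20, and 7.49% of all genes tested were called lower. Tropomyosin 2 (Tpm2) had a log2 fold change of -0.29 ± 0.04 (adjusted p = 0.000472), alpha-actinin 2 (Actn2), which anchors thin filaments at the Z-disc, -0.28 ± 0.04 (adjusted p = 0.000756), and cardiac troponin C (Tnnc1) -0.27 ± 0.05 (adjusted p = 0.00182). Actn2 had 1943, 1980, 1973 and 1862 CPM in Mut replicates 1 to 4, against 2325, 2542, 2250 and 2317 CPM in WT replicates 1 to 4, without overlap. Not every thin filament gene was called: cardiac troponin T (Tnnt2), named after its values were seen, had a log2 fold change of -0.04 ± 0.05 (adjusted p = 0.708). This list and the SRF targets share 4 genes, Tpm1 to Tpm4.

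Filament ends held 3 called genes, all lower, where 7.49% of all genes tested were called lower. Of 11 tropomodulins, leiomodins and capping proteins, 3 were called lower and none higher, with log2 fold changes from -0.54 to -0.01 and a median of -0.24. They were the nucleating leiomodin Lmod3 (-0.31 ± 0.05, adjusted p = 0.000896), the pointed-end cap Tmod3 (-0.19 ± 0.04, adjusted p = 0.00279) and the barbed-end cap Capg (-0.31 ± 0.08, adjusted p = 0.0209). The call of Capg ended without WT replicate 2 (-0.25, adjusted p = 0.0627) and without Mut replicate 3 (adjusted p = 0.0589).

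Among the genes for folding, turnover and nucleation, 1 of 17, 4 of 18 and 4 of 20 were called, beside 13.2% of all genes tested. Of 17 genes for the chaperonin, prefoldin and N-terminal processing of actin, 1 was called lower, Setd3, the actin histidine methyltransferase (-0.13 ± 0.04, adjusted p = 0.0324), with a list median of -0.06. All 17 log2 fold changes were below 0 with TMM, but 9 of 17 with library totals, where the median was -0.01. Of 18 genes for monomer binding and turnover, 3 were called lower (Twf2 -0.35 ± 0.06, adjusted p = 0.00165, Wdr1 -0.15 ± 0.04, adjusted p = 0.0266, Cfl2 -0.14 ± 0.04, adjusted p = 0.0347) and 1 higher, the severing protein gelsolin (Gsn, 0.15 ± 0.04, adjusted p = 0.0184). Among 20 subunits of the Arp2/3 complex and formins, 3 formins were called lower (Daam2 -0.37 ± 0.06, adjusted p = 0.00176, Fhod3 -0.15 ± 0.04, adjusted p = 0.0367, Daam1 -0.14 ± 0.04, adjusted p = 0.0372) and 1 higher (Fmnl1 0.41 ± 0.12, adjusted p = 0.0372). Of 8 tested genes for other actin-like proteins, 1 was called higher, Actl6a, a subunit of BAF chromatin remodellers (0.21 ± 0.06, adjusted p = 0.0243). Its exons overlap those of Mrpl47 on the opposite strand by 452 bases, and the sources used here do not say whether the counting used strand.

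Several of these smaller calls ended when 1 library was left out or when the scaling or another setting was changed. Besides Capg, leaving out 1 library ended the call of Fmnl1 in 7 of the 8 cases, of Setd3, Cfl2, Fhod3, Daam1 and Mrtfb in 6 each, of Wdr1 in 4, of Actl6a in 3 and of Gsn in 2. Adjusted p then reached at most 0.152 (Setd3, without Mut replicate 3), and no direction changed. Mrtfb, Wdr1, Cfl2, Capg and Fhod3 were not called within the libraries with airway RNA. Setd3 was not called with no filter on low counts (-0.13, adjusted p = 0.0639), Fmnl1 was not called in limma-voom, and Mrtfb, Fmnl1, Fhod3 and Daam1 were not called in the fit that is not robust. With library totals in place of TMM scaling, Setd3, Wdr1, Cfl2, Fhod3 and Daam1 were not called. That scaling moved the balance of all calls to 1856 higher and 858 lower, against 942 higher and 1226 lower with TMM, while Actc1, Acta2, Actb and Actg1 stayed called lower, at log2 fold changes of -0.38, -0.18, -0.17 and -0.16.

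**Figure D4:**
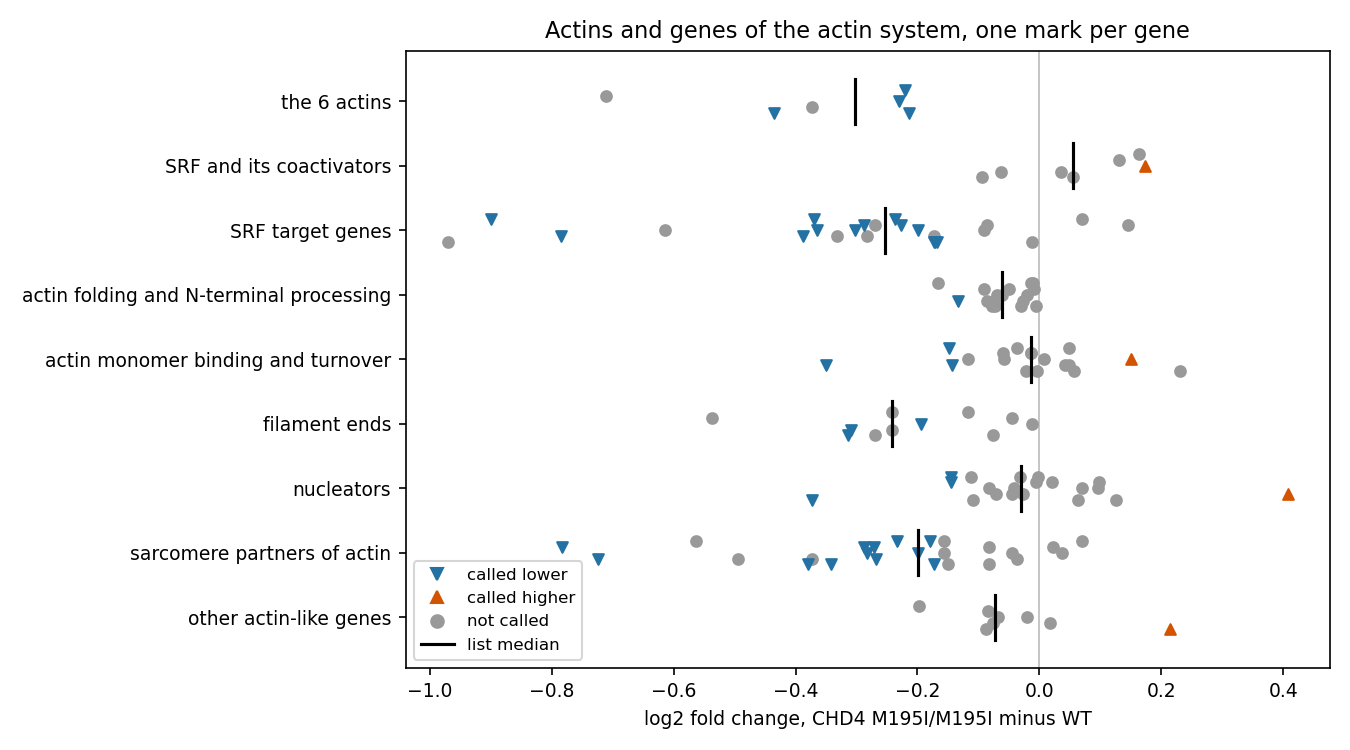
Log2 fold change, Mut minus WT, of the 6 actins and of the tested genes in 8 lists of the actin system, one mark per gene, with downward triangles for genes called lower, upward triangles for genes called higher, grey dots for genes not called and black lines for list medians. The actins (median -0.30), the SRF targets (-0.25), the filament ends (-0.24) and the sarcomere partners (-0.20) lie left of 0, and the remaining medians lie between -0.07 and 0.06 with TMM scaling, of which those for turnover (-0.01) and nucleators (-0.03) turn to 0.04 and 0.02 with library totals.

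Across the 8 libraries, the genes most like each actin were named from the 11557 genes that averaged 5 CPM or more, by Pearson's r of log2 CPM, as a description. The 8 points share the genotype difference and the library scaling, so r after removing the genotype means is given beside it. Picking the highest of 11557 genes over 8 libraries itself favours high values. The second r comes from the same libraries and does not correct for that choice. For Actc1 they were Rcan1 (r = 0.994, 0.955 with genotype means removed), a regulator of calcineurin, Csrp3 (0.990 and 0.924), the muscle LIM protein of the Z-disc, and the kinase gene Slk (0.989 and 0.913). Actb was nearest to Dcp1b (0.989 and 0.920), a decapping cofactor, the natriuretic peptide gene Nppb (0.984 and 0.883) and Aars2 (0.980 and 0.860), a mitochondrial tRNA synthetase. Actg1 was nearest to the creatine kinase gene Ckb (0.993 and 0.902), Ehd4 (0.990 and 0.898) and the tubulin gene Tuba4a (0.987 and 0.866).

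The other 3 actins were nearest to genes that were not among these. For Acta1 they were Zfp719 (r = 0.984, 0.967 with genotype means removed), Neurl4 (0.975 and 0.949) and Myo1e (0.967 and 0.948). For Acta2 they were Zfp235 (0.978 and 0.946), Fgl2 (0.975 and 0.896) and Snx13 (0.962 and 0.825). For Actg2 they were Gm13889 (0.972 and 0.963), Ptprz1 (0.960 and 0.944) and Slc35e1 (0.956 and 0.917). No gene was among the 3 nearest of more than 1 actin.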

How the data were processed

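Per the labels' protocols, Trizol RNA of dissected hearts was made into libraries with an Illumina TruSeq kit. Per the submitters' processing notes, the tools were Trimmomatic 0.36, STAR 2.5.2b and featureCounts (Subread 1.5.2), with the build GRCm38 (mm10). Raw counts per gene are what the authors deposited, and the deposited gene length (summed exons) scaled them to RPKM. The 8 files per library and the table of the whole series held the same values (0 differed). Per the file headers, each column name starts with "Male". Strand setting, annotation release and read length: not given in the sources used here.

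Symbols, exons and transcripts came from GENCODE M21 and promoters from RefSeq. Genes were kept by filterByExpr (minimum count 10), scaled by TMM and compared with the robust quasi-likelihood test of edgeR 4.0.16 in R 4.3.3, without covariates, with Benjamini-Hochberg adjustment over 16372 genes and a threshold of 0.05. TMM factors ran from 1.01 to 1.03 in Mut and from 0.963 to 0.993 in WT. The test was tested on simulated counts. Marker, Scgb3a2 and Y-linked levels are CPM of library totals, and other CPM are TMM-scaled. Libraries were checked for repeats: chi-square per degree of freedom within a genotype was 2.88 to 9.29. The members and lists were chosen with earlier results of these data known. Named genes were the 6 actins, Chd4, up to 3 called genes per list and direction by adjusted p, the 3 genes most like each actin, and genes whose exons overlap an actin, beside markers. Genes named outside this rule share sequence with an actin, overlap a named gene or are said to be chosen after their values were seen. Alternatives were DESeq2 1.42.0, limma-voom 3.58.1, other scalings, filters and lengths, a fit that is not robust, a replicate block, a covariate, and libraries left out. Shares and ratios were computed in Python 3.11.15 with scipy 1.17.1.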

Additional observations from a re-analysis of the deposited data

Results flagged for a closer look

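Among 48 series of 4 values tested for a library far from the rest of its genotype, 1 was flagged, and chance flags about 1 in 20. It was the log2 ratio of Acta2 to Actb counts per kilobase in WT hearts, where WT replicate 3 had 0.3904 and the other 3 WT libraries had 0.299 to 0.312. In Mut hearts the ratio ranged from 0.206 to 0.478. WT replicate 3 also had the highest Acta2 level of the 8 libraries, at 519 RPKM.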

How the results depend on the processing

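Actc1, Acta2, Actb and Actg1 stayed lower in every alternative run, with log2 fold changes of -0.55 to -0.38, -0.27 to -0.18, -0.31 to -0.17 and -0.26 to -0.16. They were also called in each run, leaving aside the libraries without airway RNA, where the WT group was a lone library. Acta1 passed the threshold in DESeq2 (-0.37), and its log2 fold change lay between -0.47 and -0.25 when each library was left out in turn, passing without Mut replicate 2 or 3. Actg2 passed in DESeq2 (-0.71), with the airway score (-0.67), within libraries with airway RNA (-0.69) and with a replicate block (-0.69, adjusted p = 7.74e-05), and lay between -0.88 and -0.57 when each library was left out. The labels do not say that replicate numbers pair the libraries. Correlations of same-numbered deviations were -0.516, 0.774, 0.562 and 0.102, and 2 of the 4 matched their own number best. These values cannot decide whether the numbers pair the libraries, since the libraries also differed in airway RNA. With the block, 2455 genes were called against 2168 without it. Within libraries without airway RNA 1407 were called. The log2 ratio of Actc1 to Acta1 lay between -0.1644 and 0.03599 when each library was left out. Among muscle or cytoplasmic actins alone, share differences were -0.918 percentage points for Actc1, -0.1125 for Actb and 0.1125 for Actg1, and with no division by length 0.519 for Actg1. The cause of these changes was not tested, beyond the fewer samples or genes that some alternatives hold. The counts of Actg2 (150 to 252 in Mut and 207 to 392 in WT) limit its precision.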

Other observations

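A530058N18Rik, an annotated gene of unstated function, lies within the span of Actc1 on the opposite strand and shares no exon with it. It was named after its values were seen. Its counts were 132, 125, 120 and 103 in Mut replicates 1 to 4, against 159, 191, 179 and 116 in WT replicates 1 to 4. WT replicate 4 lay inside the Mut range and the other 3 WT libraries lay above it. A530058N18Rik was called lower, like Actc1 (log2 fold change -0.49 ± 0.13, edgeR adjusted p = 0.0251). Without strand, reads from unspliced Actc1 RNA and from this gene cannot be told apart.

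Erythroid markers separated the genotypes by a narrow margin. The 7 genes summed to 1271 to 2000 CPM in Mut hearts and 2018 to 3814 CPM in WT hearts, without overlap, though none of the 7 was called. The 8 fibroblast markers summed to 8150 to 8956 CPM in Mut hearts and 7091 to 9583 CPM in WT hearts, the 7 endothelial markers to 1267 to 1390 CPM in Mut hearts and 1256 to 1316 CPM in WT hearts, and the 6 leukocyte markers to 46.2 to 60.9 CPM in Mut hearts and 43.4 to 57.5 CPM in WT hearts, all with overlap. Of the fibroblast markers, 2 (Tcf21 and Postn) were called lower and none higher. Of the endothelial markers, 1 (Kdr) was called lower and 1 (Tek) higher, and no leukocyte marker was called. Over all genes tested, 7.49% were called lower and 5.75% higher.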
